A study of Mus musculus with 3 samples.

Results

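CD8 T cells of the mouse liver were taken as the barcodes that carried T cell receptor and Cd8 transcripts and no Cd4 transcript. A kept barcode had at least 500 unique molecular identifiers (UMIs, each standing for 1 captured transcript), at least 250 genes and at most 25% of its UMIs from mitochondrial genes. A CD8 T cell then had at least 2 UMIs of Cd3d, Cd3e and Cd3g together, at least 1 UMI of Cd8a and Cd8b1 together, no Cd4 or Cd79a UMI, fewer than 10 Lyz2 UMIs and under 2% of its UMIs from S100a8 and S100a9. This rule found 310 CD8 T cells among 20950 kept cells. The members were thus selected on the measured UMIs of these genes, and their levels describe the cells and support nothing else.

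The cells came from 3 droplet libraries (10x Genomics, 3′ chemistry), 1 library per group, so no test between groups was possible and no difference between libraries had a replicate check. The first library was labelled GsdmdFL/FL, control (here FL/FL Ctrl), the second GsdmdFL/FL, irradiated (FL/FL IR), and the third Gsdmd∆Hep, irradiated (∆Hep IR), a genotype that another label of the same library gives only as a Gsdmd knockout. The design text gives 30 Gy and a harvest of the liver 7 days later. Another label calls both FL/FL groups wild type. The age, sex and strain of the mice, the number of animals behind a library, the part of the body exposed and the driver of the deletion are not given in the sources used here. Gsdmd encodes gasdermin D, the pore-forming protein of pyroptosis. In CD8 T cells Gsdmd stood at 42, 0 and 10 UMIs (22.7, 0 and 18.5 CPM, counts per 1000000 summed UMIs) in the libraries labelled FL/FL Ctrl, FL/FL IR and ∆Hep IR, an order kept for every triple of values below. In all kept cells without a Cd3 UMI, NK and B cells included, it stood at 36.7, 7.43 and 37.2 CPM. The library labelled FL/FL IR was thus the lowest, against the order of the labels, and every direction below is between libraries as labelled. A 3′ tag outside a deleted part would check no deletion, and a change limited to other cells cannot be seen in T cells.

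CD8 T cells recognise peptides on MHC class I and kill through perforin and granzymes, besides secreting interferon gamma and the chemokines of the CCL3, CCL4, CCL5 and XCL1 type. Naive and central memory cells circulate through lymph nodes under the transcription factors Lef1 and Tcf7 and the homing receptor Ccr7, while activated cells lose these, divide and may stay in the liver as resident memory cells that carry Cxcr6 and the integrin Itga1. The liver sinusoids hold all of these states.

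The gate held 230, 29 and 51 CD8 T cells with 1852507, 225532 and 540797 UMIs in sum and a median of 7368.5, 7513 and 7366 UMIs per cell. The medians were alike, but the deepest cell held 23380, 16189 and 34493 UMIs, and 2, 0 and 6 cells held over 20000. The sum for FL/FL IR was the shallowest. Of the markers, Cd3e had 690, 63 and 138 UMIs, Cd8a 645, 40 and 111 UMIs and Cd8b1 1106, 122 and 193 UMIs. Trac, a T cell receptor constant gene that the rule did not use, had a UMI in 198 of 230, 27 of 29 and 46 of 51 cells, while Foxp3 had 1 UMI in all and Ncr1, an NK cell receptor, 9 UMIs, all in FL/FL Ctrl. At the edge of the rule, 12, 3 and 8 cells held exactly 1 Cd8 UMI, 1, 0 and 2 cells held exactly 2 Cd3 UMIs, and 5, 0 and 1 further barcodes missed the rule by having 1 Cd3 UMI. A gamma-delta receptor gene, Trdc, was seen in 9, 0 and 1 of the cells. Of the CD8 T cells, 8, 0 and 2 were marked as doublets by Scrublet and left in. No CD8 barcode was shared between libraries.

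Transcripts of other liver cells were present in the CD8 sums and differed between libraries. The 12 endothelial genes stood at 1062, 284 and 804 CPM in sum with none at 0, and most of this lay in 8, 1 and 3 barcodes with 20 or more endothelial UMIs, of which the lowest held 31, 43 and 56, while the other CD8 T cells held at most 5, 3 and 4. The 15 hepatocyte genes stood at 653, 470.0 and 148 CPM, with Serpina1c, Mup20 and Ambp at 0 in FL/FL IR and Fabp1, Rbp4 and Gnmt at 0 in ∆Hep IR. The 10 B cell genes stood at 254, 48.8 and 64.7 CPM, of which Ighm had 397, 9 and 26 UMIs, and 8 of the 10 were at 0 in either irradiated library. The 11 neutrophil granule genes stood at 31.8, 1144 and 886 CPM, with Retnlg at 1, 30 and 31 UMIs and Mpo and Elane at 0 in all 3. CD4 T cells gated in the same way held like levels of the neutrophil genes, 33.6, 1160 and 917 CPM. The part of these transcripts in the results was not tested, except that each result was also computed without the 12 endothelial barcodes.

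CD8 T cells made up a smaller share of the kept cells in both irradiated libraries. They were 3.48% of the kept cells in FL/FL Ctrl (exact 95% interval 3.05 to 3.95), 0.428% in FL/FL IR (0.287 to 0.614) and 0.675% in ∆Hep IR (0.503 to 0.887). The intervals, here and below, cover counting error only. FL/FL IR was 8.13-fold lower than FL/FL Ctrl (5.51 to 12.4), ∆Hep IR was 5.15-fold lower than FL/FL Ctrl (3.79 to 7.11), and ∆Hep IR stood at 1.58 times FL/FL IR, with an interval that takes in 1 (0.982 to 2.58). The other lymphocytes were lower as well in FL/FL IR than in FL/FL Ctrl, CD4 T cells 4.16-fold (2.85 to 6.20), T cells without Cd4 or Cd8 UMIs 5.65-fold (4.07 to 8.01) and NK cells 5.92-fold (3.92 to 9.27). These were also below FL/FL Ctrl in ∆Hep IR, by 2.49-fold (1.85 to 3.40), 2.97-fold (2.32 to 3.83) and 2.51-fold (1.88 to 3.37). Against FL/FL IR they were higher in ∆Hep IR beyond counting error, CD4 T cells 1.67-fold (1.09 to 2.59), T cells without Cd4 or Cd8 UMIs 1.90-fold (1.31 to 2.80) and NK cells 2.36-fold with an interval that ends at 3.83, and whether CD8 T cells differ from them in this was not tested. A share of kept cells cannot tell fewer CD8 T cells apart from more cells of other kinds.

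Within the T cells the balance also differed. There were 1.62 CD8 T cells for each CD4 T cell in FL/FL Ctrl (1.31 to 2.01), 0.829 in FL/FL IR (0.489 to 1.40) and 0.785 in ∆Hep IR (0.533 to 1.15). More barcodes thus passed the CD8 gate than the CD4 gate in FL/FL Ctrl, and the intervals of both irradiated libraries took in 1. The gates do not detect alike. Cd4 had 246, 66 and 109 UMIs in the CD4 T cells, against 1106, 122 and 193 of Cd8b1 in the CD8 T cells. A CD4 T cell can therefore more easily lack its UMI and fall among the T cells without Cd4 or Cd8 UMIs. Whether CD8 T cells outnumber CD4 T cells was not tested. With at least 2 Cd8 UMIs required, the ratio in ∆Hep IR was 0.662 (0.439 to 0.987), an interval below 1. The share of CD8 T cells moved by less than its interval without the 12 endothelial barcodes, with doublets removed or with stricter gates.

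**Figure D1:**
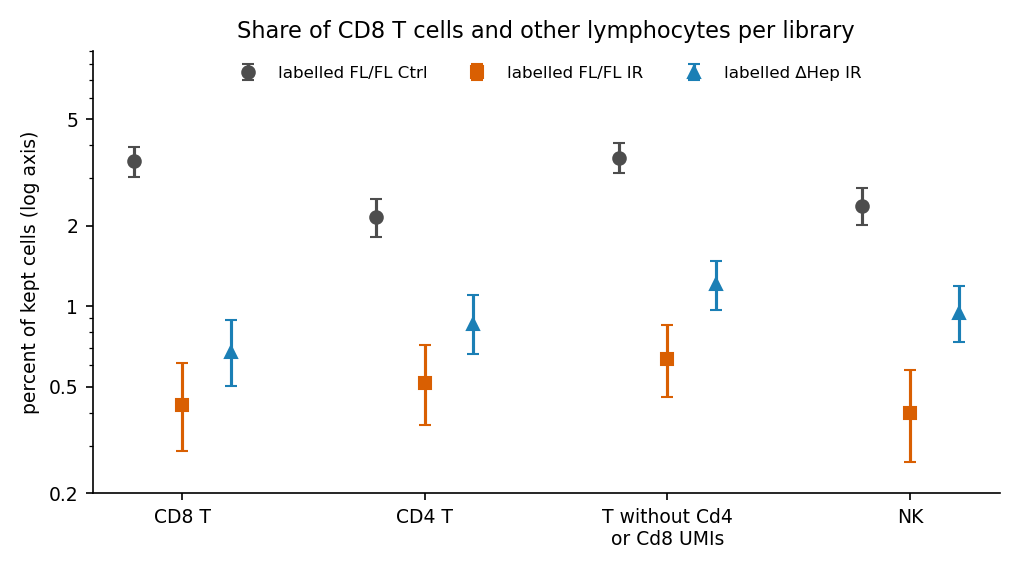
Share of kept cells that passed the gates for CD8 T cells, CD4 T cells, T cells without Cd4 or Cd8 UMIs and NK cells, as percent on a log axis, in each of the 3 libraries. Points are the shares and bars exact 95% intervals of counting error; the CD8 share was 3.48% in the library labelled FL/FL Ctrl, 0.428% in FL/FL IR and 0.675% in ∆Hep IR.

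In every library most CD8 T cells fell into 2 classes by Ccl5, a chemokine that effector and memory CD8 T cells store as transcript. No Ccl5 UMI was seen in 106, 15 and 24 cells, or 46.1%, 51.7% and 47.1%. Another 99, 13 and 25 cells, or 43.0%, 44.8% and 49.0%, held 5 or more, with a median of 60, 66 and 37 Ccl5 UMIs, and only 25, 1 and 2 cells lay between. The split was therefore close to even in each library, and Ccl5 itself stood at 4001, 3915 and 3650.2 CPM over all CD8 T cells. Ccl5 had a UMI in 5.31% of the 1468 B cells of FL/FL Ctrl, the level that free transcripts could give there.

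The 2 classes differed in their summed levels of genes of naive and of effector cells, but that with 5 or more Ccl5 UMIs was itself mixed. In FL/FL Ctrl 1 of its cells held 88 UMIs of the naive and central memory list among 11214, and another held 2 among 5894. Lef1, a transcription factor of naive T cells, stood at 619, 526 and 374 CPM in the cells without Ccl5 and at 232, 225 and 81.4 CPM in those with 5 or more. Nkg7, a protein of cytotoxic granules, went the other way, with 340.2, 567 and 325 CPM against 1144, 784 and 1023 CPM. Gzmb (granzyme B) was at 2.52, 20.2 and 6.14 CPM in the cells without Ccl5 and at 522, 217 and 1113 CPM in those with 5 or more, and Ifng at 7.56, 0 and 0 CPM against 257, 75.0 and 474 CPM. The classes were cut after Ccl5 had been seen and are ranges of 1 gene, so these values are a description with no test.

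**Figure D2:**
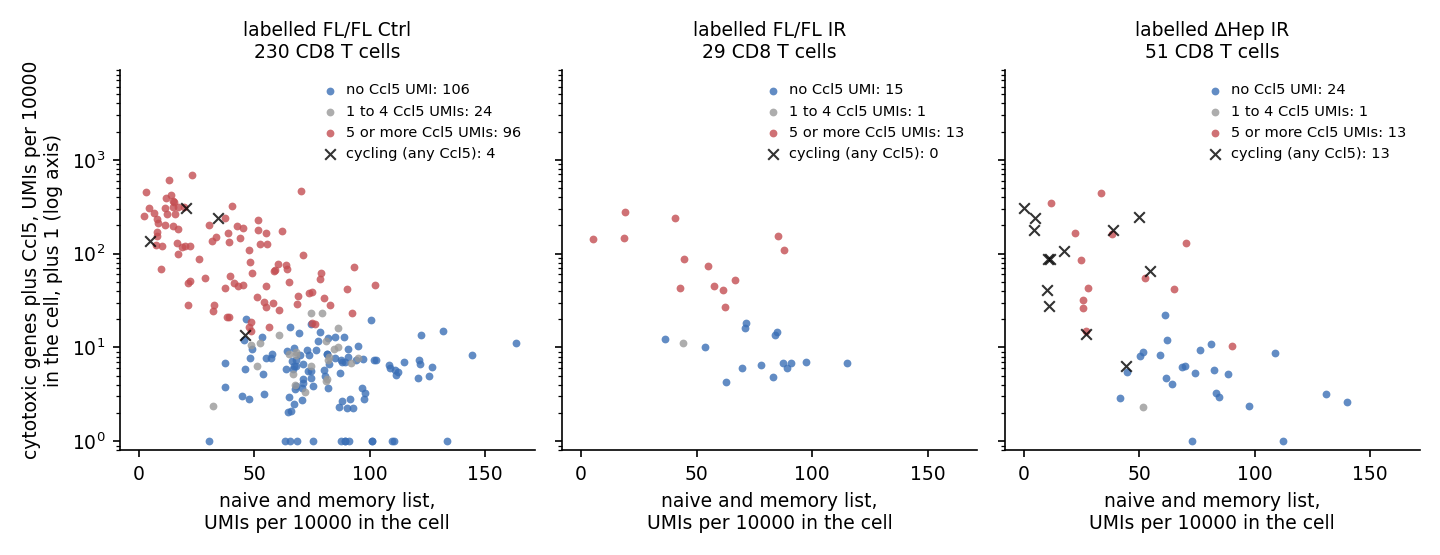
Each point is 1 CD8 T cell, placed by its UMIs of the naive and central memory list per 10000 UMIs of the cell (x axis) and by its UMIs of the cytotoxic granule genes and Ccl5 per 10000, plus 1 (y axis, log), in 1 panel per library. Colours give the Ccl5 class of cells that do not cycle and crosses the cells with 5 or more UMIs of 11 cell-cycle genes, of which there were 4 of 230, 0 of 29 and 13 of 51.

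The share of CD8 T cells with a UMI of a state gene was compared after each cell had been thinned to 1500 UMIs, with no CD8 T cell left out. Gzmb was found in 10.9% (7.16 to 15.6), 6.90% (0.846 to 22.8) and 27.5% (15.9 to 41.7) of the thinned cells, and in 16.1%, 20.7% and 39.2% of the full ones, against 0.749% of the B cells of FL/FL Ctrl. Ccr7 was found in 40.4% (34.0 to 47.1), 20.7% (7.99 to 39.7) and 17.6% (8.40 to 30.9) of the thinned cells. Cdkn1a, the p53 target p21, was found in 2.17%, 13.8% and 13.7%, but in 18.2% (5.19 to 40.3) of the B cells of FL/FL IR. At 1000 UMIs per cell Cdkn1a was at 1.74%, 6.90% and 0, and Ccr7 at 31.7%, 31.0% and 19.6%, so no order is read from either. Il7r, the survival receptor of resting T cells, was found in 55.2%, 62.1% and 43.1%, with intervals that overlap. Pdcd1, the inhibitory receptor PD-1, was at 1.30%, 0 and 19.6% in the full cells and at 0, 0 and 3.92% after thinning, and Tigit had a UMI in 1 of the 310 cells. With 29 cells in FL/FL IR, 0 allows a share of cells with a UMI of up to 10.3% at a limit of 3 cells (exact upper bound 11.9%), which says nothing of cells that express Pdcd1 below detection.

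Levels in CD8 T cells were first set side by side for FL/FL IR and FL/FL Ctrl, which asks what differed with irradiation in GsdmdFL/FL mice. The leading difference was that chemokines and cytokines of effector CD8 T cells were lower in the irradiated library. All 10 measured members of that list stood lower (median log2 ratio -1.59), 8 of them 2-fold or more, where a gene counts as measured with at least 20 UMIs over the 2 libraries. Over all 7301 genes measured, 15.9% were 2-fold or more lower and 4.83% higher, with a median log2 ratio of -0.05. These calls used the plain ratio of CPM, with a library at 0 set to a floor of 3 counts. The split depends on how low counts are treated. With 2 counts added to each side 326 genes were lower (4.47%) and 740 higher (10.1%). With a minimum of 100 UMIs 240 were lower (9.96%) and 22 higher (0.913%) of 2409. The list median stayed between -1.37 and -1.70 in every setting tried. These included cells without the 12 endothelial barcodes and cells of either Ccl5 class. In the cells without Ccl5, however, Ccl4 stood at 8.82, 0 and 6.14 CPM, Ccl3 at 8.82, 20.2 and 6.14 CPM and Xcl1 at 2.52, 0 and 0 CPM. These 3 had too few UMIs there to count as measured, so the median of that class rests on other members. The members of the list reached the minimum mainly through FL/FL Ctrl. All 9 with at least 100 UMIs stood lower (median -1.65), but they reached that minimum mainly through FL/FL Ctrl as well. These counts are therefore a description.

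Ccl4, an inflammatory chemokine, had 1555, 28 and 35 UMIs (839, 124 and 64.7 CPM) and was 6.76-fold lower (4.66 to 10.2) in FL/FL IR. The highest single cell held 9.52% of the Ccl4 UMIs of FL/FL Ctrl, and it was seen in 78 of 230 cells. Ccl3, a related chemokine, had 326, 2 and 10 UMIs (176, 8.87 and 18.5 CPM), 19.8-fold lower (5.45 to 165) in FL/FL IR. Xcl1, which attracts cross-presenting dendritic cells, had 470, 8 and 18 UMIs (254, 35.5 and 33.3 CPM), 7.15-fold lower (3.60 to 16.7). These 3 chemokines were also low in ∆Hep IR, where Ccl4 was 13.0-fold lower (9.29 to 18.7) than in FL/FL Ctrl, Ccl3 9.52-fold lower (5.11 to 20.03) and Xcl1 7.62-fold lower (4.77 to 13.0). Ltb, the lymphotoxin that organises lymphoid tissue, had 710, 27 and 152 UMIs (383, 119.7 and 281 CPM), 3.20-fold lower (2.18 to 4.89) in FL/FL IR, with ∆Hep IR between. Ifng had 225, 9 and 163 UMIs (121, 39.9 and 301 CPM), 3.04-fold lower (1.57 to 6.74) in FL/FL IR but 2.48-fold higher (2.02 to 3.05) in ∆Hep IR than in FL/FL Ctrl, where a single cell held 42.9% of the Ifng UMIs of ∆Hep IR. Tnf had 20, 1 and 8 UMIs, just past the minimum. Ccl5 was the exception among the chemokines, 4001, 3915 and 3650.2 CPM, with a ratio of 0.979 between FL/FL IR and FL/FL Ctrl (0.912 to 1.05). These transcripts are also abundant in NK cells, where Ccl4 stood at 7494, 4748 and 5095 CPM and Xcl1 at 1248, 361 and 1147 CPM, and the effector list had a median log2 ratio of -0.68 in CD4 T cells, -1.25 in T cells without Cd4 or Cd8 UMIs and -0.79 in NK cells for the same 2 libraries.

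Cytotoxic genes did not follow this as a group. Of 14 measured, 3 were 2-fold or more lower in FL/FL IR and none higher, with a median log2 ratio of -0.08. Prf1, the pore protein perforin, had 84, 3 and 19 UMIs and was 3.41-fold lower (1.13 to 16.9). Gzmb had 448, 28 and 384 UMIs (242, 124 and 710.1 CPM), 1.95-fold lower (1.33 to 2.97) in FL/FL IR. Gzma (granzyme A) had 426, 64 and 764 UMIs, but all 64 in FL/FL IR came from 1 cell, and the top cell held 43.4% in FL/FL Ctrl.

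Interferon-stimulated genes were also lower in FL/FL IR. Of the 44 measured of this list, 38 stood lower, 16 of them 2-fold or more and none higher by as much, with a median log2 ratio of -0.72. Most of the 44 reached 20 UMIs through FL/FL Ctrl, which held more UMIs, so these counts are a description. Of the 18 members with at least 100 UMIs 17 stood lower (median -0.71), and the deeper FL/FL Ctrl weighs on this minimum in the same way. For 7 of the 16 the counting interval of the ratio lay wholly below 1. Isg15, a ubiquitin-like protein, had 274, 6 and 41 UMIs (148, 26.6 and 75.8 CPM), 5.56-fold lower (2.52 to 15.3) in FL/FL IR. Slfn5 had 89, 2 and 9 UMIs, 5.42-fold lower (1.46 to 45.4), and Rtp4 had 76, 2 and 16 UMIs, 4.63-fold lower (1.24 to 38.9). Ifi27l2a had 700, 38 and 69 UMIs (378, 168 and 128 CPM), 2.24-fold lower (1.62 to 3.20). Iigp1, an interferon-induced GTPase, had 33, 0 and 2 UMIs and Ifi204 had 32, 0 and 7 UMIs, and Ifi44 had 29, 0 and 0 UMIs. All 3 were at 0 in FL/FL IR, and Iigp1 was at least 1.34-fold lower at a floor of 3 counts for that library. The transcription factors Irf7 (39.9, 22.2 and 31.4 CPM) and Irf1 (185, 133 and 155 CPM) had lower values in FL/FL IR with less than a 2-fold difference.

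Without the 12 endothelial barcodes the interferon-stimulated median was -0.53 (39 measured, 13 lower by 2-fold or more), in the cells without Ccl5 -1.05 and in those with 5 or more Ccl5 UMIs -0.40. The same list stood at -0.33 in CD4 T cells, -0.95 in T cells without Cd4 or Cd8 UMIs and -0.53 in NK cells. Isg15 stood at 151, 15.7 and 46.0 CPM in the kept cells without a Cd3 UMI. In ∆Hep IR the list stood between, with a median of 0.52 over FL/FL IR (24 measured, 7 higher by 2-fold or more and 1 lower) and -0.32 against FL/FL Ctrl (44 measured, 1 higher and 11 lower), and the latter was -0.02 without the cycling cells described below and 0.06 without cells over 20000 UMIs. Genes of the MHC class I pathway, which interferon raises, stood lower in FL/FL IR in 13 of 16 (median -0.64), but 3 were lower by 2-fold or more, a share near the 15.9% of all genes. Among them was Tapbp, the peptide-loading factor tapasin, at 295, 13 and 50 UMIs, 2.76-fold lower (1.59 to 5.25).

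Several receptors that T cells share with NK cells were lower in FL/FL IR. Of 12 measured NK receptors on T cells, 6 were 2-fold or more lower and none higher (median -0.73). Klrc2, an activating receptor, had 87, 2 and 7 UMIs, 5.30-fold lower (1.42 to 44.4) in FL/FL IR, and Ly6c2, a memory marker, had 1117, 51 and 142 UMIs (603, 226 and 263 CPM), 2.67-fold lower (2.01 to 3.60). Klrd1, by contrast, stood at 193, 235 and 179 CPM. In ∆Hep IR 8 of the 12 were 2-fold or more lower than in FL/FL Ctrl, and Klra9 (51, 3 and 0 UMIs) and Klra1 (37, 3 and 0 UMIs) of the Ly49 family were at 0 there, at least 4.96-fold lower and at least 3.60-fold lower. The Ly49 genes are near-identical in sequence, so the split of reads among them is uncertain. Of 11 measured residency genes 4 were 2-fold or more lower in FL/FL IR and none higher (median -0.52), with 3 of the 11 above FL/FL Ctrl. Itga1 had 125, 1 and 22 UMIs (67.5, 4.43 and 40.7 CPM), 15.2-fold lower (2.68 to 606) in FL/FL IR, and Cxcr6 had 101, 2 and 33 UMIs (54.5, 8.87 and 61.0 CPM), 6.15-fold lower (1.66 to 51.5). Of 24 measured T cell transcription factors 7 were 2-fold or more lower and 1 higher (median -0.29), with 11 above and 13 below FL/FL Ctrl. Maf had 206, 4 and 34 UMIs, 6.27-fold lower (2.41 to 23.2), and Ikzf2 (Helios) had 97, 2 and 12 UMIs, 5.90-fold lower (1.59 to 49.4). Itga1 had a UMI in 4.29% of the B cells of FL/FL Ctrl. It stood at 51.7, 0 and 55.2 CPM in the CD8 T cells without Ccl5, seen in 5, 0 and 2 of them. In those with 5 or more Ccl5 UMIs it stood at 98.6, 8.34 and 26.1 CPM. The part of transcripts from other liver cells in these values was not tested, and no share of resident cells is read from Itga1. Checkpoint and activation receptors went both ways, with 3 of 9 measured 2-fold or more higher and 3 lower (median 0.46). Ctla4 was 2.19-fold higher (1.05 to 4.21), Tnfrsf18 2.74-fold higher (1.61 to 4.49) and Btla 2.14-fold higher (1.03 to 4.11). Cd160 was 3.65-fold lower (1.65 to 10.1) and Cd27 2.53-fold lower (1.45 to 4.81).

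Genes that were higher in FL/FL IR included p53 targets. Of 18 measured p53 targets, 4 were 2-fold or more higher and 2 lower (median 0.46). Cdkn1a had 49, 19 and 31 UMIs (26.5, 84.2 and 57.3 CPM), 3.19-fold higher (1.77 to 5.51) in FL/FL IR, Fas, the death receptor, had 57, 16 and 48 UMIs, 2.31-fold higher (1.24 to 4.07), and Pmaip1 (Noxa) had 52, 16 and 33 UMIs, 2.53-fold higher (1.35 to 4.50). The same genes were higher in ∆Hep IR than in FL/FL Ctrl, Cdkn1a 2.17-fold higher (1.34 to 3.47) and Fas 2.88-fold higher (1.92 to 4.31). The list median was 0.05 when only the 4 members with 100 or more UMIs were used. In FL/FL IR 3 cells held 68.4% of the Cdkn1a UMIs, and B cells of that library held Cdkn1a too, as given above. Pmaip1 had a log2 ratio of -0.019 between FL/FL IR and FL/FL Ctrl in the cells without Ccl5, from 3 and 28 UMIs.

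The genes with the highest ratios in FL/FL IR were led by Fkbp5, a chaperone partner that glucocorticoids induce, at 35, 36 and 67 UMIs (18.9, 159.6 and 124 CPM), 8.45-fold higher (5.16 to 13.9). Gadd45g had 60, 36 and 169 UMIs (32.4, 159.6 and 313 CPM), 4.93-fold higher (3.17 to 7.57), and Socs3, a feedback inhibitor of cytokine signalling, had 197, 94 and 172 UMIs (106, 417 and 318 CPM), 3.92-fold higher (3.03 to 5.04). Cdk6 had 50, 23 and 63 UMIs (27.0, 102 and 116 CPM), 3.78-fold higher (2.20 to 6.31), Rab27a, which docks cytotoxic granules, 45, 20 and 30 UMIs, 3.65-fold higher (2.04 to 6.31), and Gpr18, a lipid receptor, 98, 40 and 47 UMIs, 3.35-fold higher (2.26 to 4.89). All 6 were above FL/FL Ctrl in ∆Hep IR too. Other cells showed Fkbp5 and Socs3 higher in the irradiated libraries too. Of the others, in the kept cells without a Cd3 UMI of FL/FL IR, Gadd45g stood at 116 CPM, Rab27a at 71.4, Cdk6 at 14.1 and Gpr18 at 0.507. Fkbp5 stood at 27.3, 93.0 and 191 CPM in CD4 T cells and at 36.2, 265 and 252 CPM in the kept cells without a Cd3 UMI, and Socs3 at 56.7, 301 and 267 CPM in CD4 T cells. The lowest ratios belonged to Fgl2 (115, 0 and 7 UMIs), a secreted regulator of T cells, Hist1h2ap (85, 0 and 262 UMIs), Mpp7 (70, 0 and 9 UMIs), Pkp4 (67, 0 and 14 UMIs), Ccl3 and Ptp4a3 (151, 1 and 26 UMIs, 18.4-fold lower (3.25 to 731)). Fgl2 was at least 4.67-fold lower and Mpp7 at least 2.84-fold lower, and 54 of the 85 Hist1h2ap UMIs of FL/FL Ctrl lay in 1 cell.

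**Figure D3:**
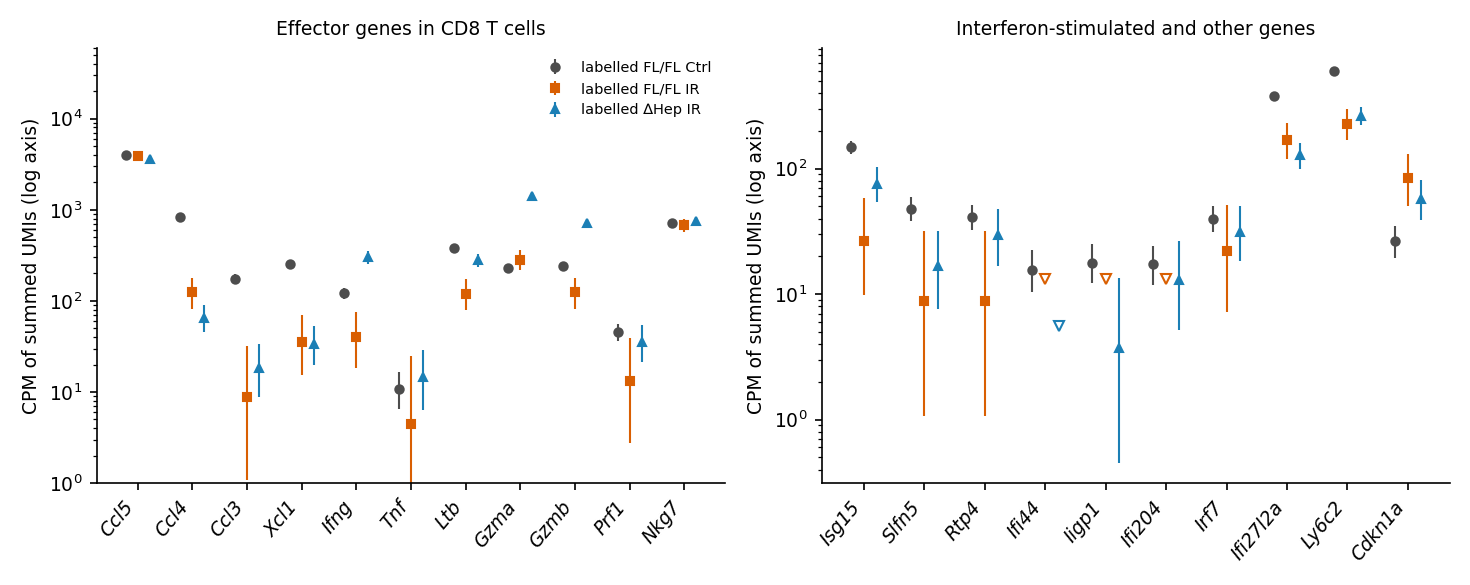
Summed UMIs of CD8 T cells as CPM on a log axis, for effector genes (left) and interferon-stimulated and other genes (right), in the 3 libraries. Bars are exact 95% Poisson intervals of counting error and open triangles mark genes at 0, drawn at the floor of 3 counts; Ccl4 stood at 839, 124 and 64.7 CPM, while Ccl5 stood near 4001, 3915 and 3650.2 CPM.

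The comparison of ∆Hep IR with FL/FL IR asks what differed with the genotype after irradiation. It shares FL/FL IR with the comparison above, and that of ∆Hep IR with FL/FL Ctrl shares the control, so values of a gene are given for all libraries and no overlap is counted. Over all 4288 genes measured, 16.2% were 2-fold or more higher in ∆Hep IR and 4.27% lower. With 2 counts added 437 were higher and 201 lower, and with at least 100 UMIs 107 (12.4%) were higher and 9 (1.04%) lower. Against FL/FL Ctrl 9.02% of 7759 genes were higher and 11.3% lower. With 2 counts added these were 804 and 459 genes, and with at least 100 UMIs 178 and 185 of 2798.

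Proliferation genes led the ∆Hep IR library. All 20 measured members were 2-fold or more higher than in FL/FL IR (median log2 ratio 4.28, or 2.55 with members at 0 set to their bound), and 18 of 20 were 2-fold or more higher than in FL/FL Ctrl (median 2.71). The list holds 22 genes, and most of the 20 passed the minimum of 20 UMIs through ∆Hep IR itself, so these counts are a description. The genes that mitosis needs switch on late in the cell cycle, and many of their promoters hold a CHR element (TTTGAA) and CCAAT boxes, through which the DREAM and NF-Y complexes act. The 150 bases before the start of transcription are printed for 3 of them, from RefSeq sequences on GRCm38.p6, 5′ to 3′ on the strand of the gene, with both motifs in capitals on either strand, because the 3 genes were among those seen in ∆Hep IR and hold both motifs. They lie at chr2:164769779-164769928 on the plus strand (Ube2c), chr7:135716380-135716529 on the minus strand (Mki67) and chr10:69352913-69353062 on the minus strand (Cdk1).
Ube2c: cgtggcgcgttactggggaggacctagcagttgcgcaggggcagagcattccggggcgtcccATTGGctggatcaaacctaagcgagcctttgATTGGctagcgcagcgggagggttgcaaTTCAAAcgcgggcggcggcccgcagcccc
Mki67: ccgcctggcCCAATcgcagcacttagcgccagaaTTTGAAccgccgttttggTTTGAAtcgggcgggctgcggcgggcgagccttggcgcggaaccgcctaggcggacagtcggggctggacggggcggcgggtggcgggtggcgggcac
Cdk1: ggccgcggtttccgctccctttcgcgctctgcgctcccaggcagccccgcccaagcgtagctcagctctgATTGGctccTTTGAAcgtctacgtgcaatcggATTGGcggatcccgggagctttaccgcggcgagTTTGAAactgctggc
TTCAAA and ATTGG are the same motifs on the other strand. The first base of TTTGAA lay 29 bases before the start of Ube2c, 116 and 98 before that of Mki67 and 71 and 15 before that of Cdk1. In the 250 bases before the start, TTTGAA was found for 6 of the 18 measured members with a RefSeq promoter and CCAAT for 13, against 18.3% and 37.5% of all 27025 symbols, and both for 6 members against 6.45%. A match describes letters only.

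Mki67, the proliferation antigen, had 53, 0 and 100 UMIs (28.6, 0 and 185 CPM) and was at least 13.9-fold higher in ∆Hep IR than in FL/FL IR and 6.46-fold higher (4.59 to 9.20) than in FL/FL Ctrl. Birc5 (survivin), which guides chromosome segregation, had 23, 0 and 98 UMIs, 14.6-fold higher (9.19 to 24.1) than in FL/FL Ctrl, and Ube2c, of the anaphase-promoting machinery, had 34, 0 and 78 UMIs, 7.86-fold higher (5.19 to 12.1). Cdk1, the kinase of mitotic entry, had 13, 0 and 43 UMIs (7.02, 0 and 79.5 CPM). Pclaf, a partner of PCNA in replication, had 27, 0 and 123 UMIs, 15.6-fold higher (10.2 to 24.6), and Stmn1, a microtubule regulator, had 88, 2 and 231 UMIs (47.5, 8.87 and 427 CPM). The histone genes Hist1h2ap (85, 0 and 262 UMIs), H1f5 (49, 0 and 144 UMIs), H2ac4 (4, 0 and 71 UMIs) and H2ac8 (40, 2 and 266 UMIs) had the same order, although near-identical histone copies may share reads. FL/FL IR was at 0 or 1 to 2 UMIs for most of these genes, and Pcna (107, 97.5 and 263 CPM) and Tubb5 (390.3, 204 and 701 CPM) were the members it still held.

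These transcripts lay in few cells. With 5 or more UMIs of 11 cell-cycle genes taken as cycling, 13 of 51 CD8 T cells of ∆Hep IR cycled (25.5%, 14.3 to 39.6), against 4 of 230 in FL/FL Ctrl (1.74%, 0.476 to 4.39) and 0 of 29 in FL/FL IR, which allows up to 10.3% at a limit of 3 cells and 11.9% as the exact upper bound. The share was 14.7 times that of FL/FL Ctrl (4.53 to 61.7). After thinning to 1500 UMIs, 4.78%, 6.90% and 25.5% of the CD8 T cells held at least 1 UMI of these genes, a looser criterion. By the same criterion the share was 7.75%, 20.6% and 23.1% in CD4 T cells, so in ∆Hep IR it was near that of CD8 T cells. It was 10.7%, 2.33% and 6.67% in T cells without Cd4 or Cd8 UMIs and 8.33%, 7.41% and 8.45% in NK cells. With 5 or more UMIs in the full cells, CD4 T cells cycled in 5 of 142, 4 of 35 and 7 of 65 (3.52%, 11.4% and 10.8%). T cells without Cd4 or Cd8 UMIs cycled in 15 of 237, 1 of 43 and 4 of 91, and NK cells in 5 of 156, 0 of 27 and 2 of 71. The proliferation list stood 0.78 higher on the log2 scale in ∆Hep IR than in FL/FL IR in CD4 T cells and -0.12 against FL/FL Ctrl, and 2.45 and 0.02 in NK cells. Whether the difference between libraries is larger in CD8 than in the other cells was not tested.

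The 13 cycling cells of ∆Hep IR were deep, with a median of 18933 UMIs against 6903 in the others, and 6 of them held over 20000. They carried 45.1% of all CD8 UMIs of that library, 12 had 5 or more Ccl5 UMIs and 1 was among the endothelial barcodes. Without all cycling cells the proliferation median was 0.14 against FL/FL IR over 4 measured members and -0.39 against FL/FL Ctrl over 10. Without the cells over 20000 UMIs it was 2.38 over 9 members and 0.86 over 17, and without the 12 endothelial barcodes 4.51 and 2.56. Depth and cycling cannot be told apart in so few cells.

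**Figure D4:**
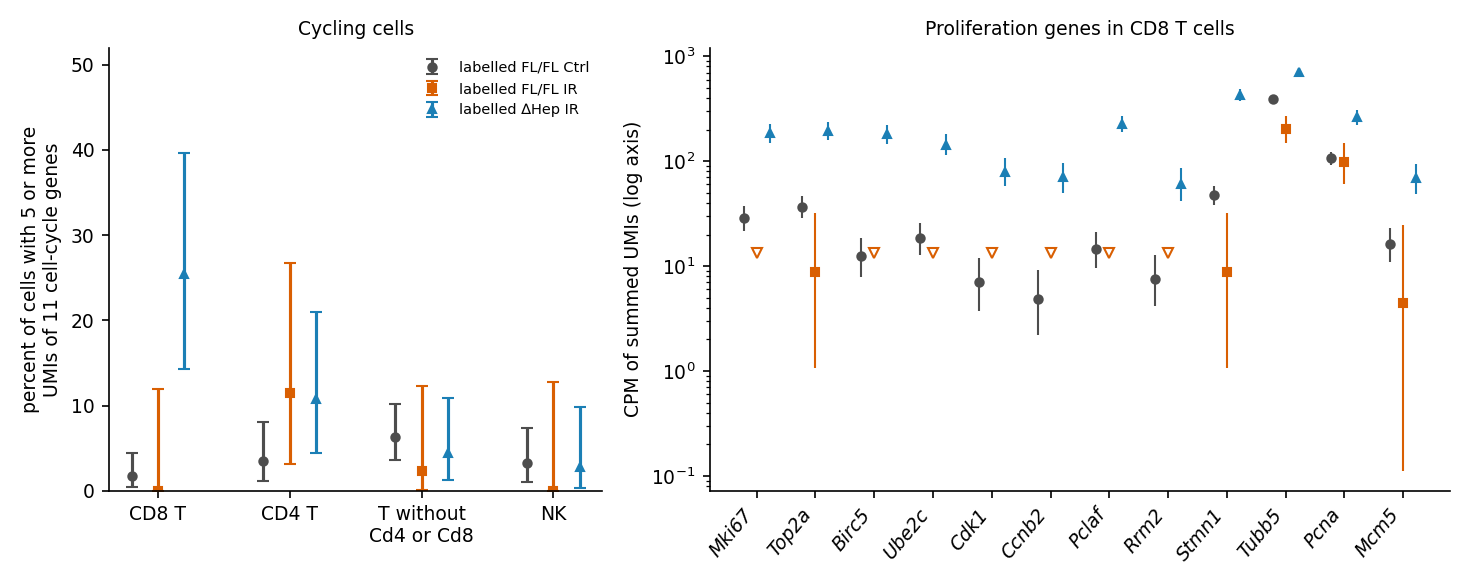
Left, percent of CD8 T cells, CD4 T cells, T cells without Cd4 or Cd8 UMIs and NK cells with 5 or more UMIs of 11 cell-cycle genes, with exact 95% intervals; right, proliferation genes in CD8 T cells as CPM on a log axis, with exact 95% Poisson intervals and open triangles for genes at 0, drawn at the floor of 3 counts. Of the CD8 T cells 1.74%, 0 and 25.5% cycled in the libraries labelled FL/FL Ctrl, FL/FL IR and ∆Hep IR.

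Cytotoxic genes were higher in ∆Hep IR than in FL/FL IR, and granzyme A lay almost wholly in the cycling cells. Of 12 measured, 5 were 2-fold or more higher than in FL/FL IR and none lower (median 0.60), while against FL/FL Ctrl the median was 0.05 (15 measured, 5 higher, 1 lower). Gzma, at 230.0, 284 and 1413 CPM, was 6.14-fold higher (5.45 to 6.93) in ∆Hep IR than in FL/FL Ctrl, but it was found in 8 cells, 3 of which held 82.6% of it, and the cycling cells held 99.5%. Without them Gzma stood at 129, 284 and 13.5 CPM, with ∆Hep IR now the lowest. Gzmb, at 242, 124 and 710.1 CPM, was 5.72-fold higher (3.89 to 8.72) than in FL/FL IR, and the cycling cells held 69.5% of it. Without them it stood at 191, 124 and 394 CPM, still highest in ∆Hep IR. Gzmk, at 14, 1 and 32 UMIs, was 7.83-fold higher (4.06 to 15.9) than in FL/FL Ctrl and lay in 7 cells of ∆Hep IR, and Serpinb6b, an inhibitor that shields killers from their own granzymes, had 82, 16 and 113 UMIs, 4.72-fold higher (3.52 to 6.35). Counting intervals are too narrow for genes held by so few cells.

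Checkpoint receptors showed no common direction against FL/FL Ctrl (11 measured, 3 higher and 2 lower by 2-fold or more, median -0.09). Pdcd1 had 3, 0 and 34 UMIs and was 38.8-fold higher (12.2 to 198) in ∆Hep IR, in 10 of 51 cells, and the cycling cells held 64.7% of it. Ctla4, a second inhibitory receptor, had 45, 12 and 50 UMIs (24.3, 53.2 and 92.5 CPM), 3.81-fold higher (2.49 to 5.83), with 74.0% in the cycling cells. Genes of the metabolism of activated T cells were higher in ∆Hep IR, 7 of 16 by 2-fold or more and 1 lower (median 0.77), among them the glycolytic enzymes Gapdh (496, 589.7 and 1302 CPM), Ldha (174, 266 and 451 CPM) and Pgk1 (82.1, 129 and 226 CPM). Without cycling cells the median was 0.39 (4 higher, 2 lower). Myc stood at 87.4, 199.5 and 176 CPM, high in both irradiated libraries.

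Naive and central memory genes were lower in ∆Hep IR and near the control in FL/FL IR. Against FL/FL Ctrl 6 of 15 were 2-fold or more lower in ∆Hep IR and none higher (median -0.72), and in FL/FL IR 1 was lower and none higher (median -0.15). Lef1 had 790, 86 and 98 UMIs (426, 381 and 181 CPM), 2.35-fold lower (1.91 to 2.93) in ∆Hep IR, and Ccr7, the receptor for lymph node chemokines, had 811, 68 and 87 UMIs (438, 302 and 161 CPM), 2.72-fold lower (2.18 to 3.44). Foxp1, which holds naive cells quiescent, had 714, 46 and 65 UMIs (385, 204 and 120.2 CPM), 3.21-fold lower (2.49 to 4.20), and Dapl1 had 596, 27 and 39 UMIs (322, 119.7 and 72.1 CPM), 4.46-fold lower (3.23 to 6.34). Tcf7 (394, 328 and 279 CPM) and Klf2 (1714, 1999.7 and 1485 CPM) differed by less than 2-fold. In the cells without Ccl5 the list median was -0.09, in those with 5 or more Ccl5 UMIs -1.35, and without the cycling cells -0.12. CD4 T cells had -0.79 for the same list and libraries, and T cells without Cd4 or Cd8 UMIs 0.68.

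Among the genes with the lowest ratios in ∆Hep IR against FL/FL IR were Vgll4 (186, 35 and 31 UMIs, 2.71-fold lower (1.62 to 4.54)), Pik3cd, the lymphocyte PI3 kinase delta (2.52-fold lower (1.58 to 4.04)), Malt1, of the antigen receptor pathway to NF-kB (2.44-fold lower (1.65 to 3.61)), Txk (2.35-fold lower (1.78 to 3.11)), Marchf7 (2.32-fold lower (1.37 to 3.93)) and Nr4a2 (2.23-fold lower (1.41 to 3.51)). These 6 differed by under 3-fold, far less than the genes at the other end. Against FL/FL Ctrl, Ift80 (66, 2 and 1 UMIs), Ifitm10 (62, 5 and 3 UMIs), Acss1 (61, 12 and 3 UMIs) and Ncln (58, 4 and 3 UMIs) were lowest beside Ccl4 and Ccl3. S100a4, a calcium-binding protein of effector cells, had 143, 21 and 474 UMIs (77.2, 93.1 and 876 CPM), 11.4-fold higher (9.40 to 13.8), in 16 of the 51 cells of ∆Hep IR. Saa2, an acute-phase protein of hepatocytes, had 4, 0 and 62 UMIs and was found in 26 of the 51 cells of ∆Hep IR. Its level there, 115 CPM, was like that of the kept cells without a Cd3 UMI (100.3 CPM) and of NK cells (106 CPM).

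CD8 T cells were then compared with the other lymphocytes of the same libraries, which asks what sets them apart in this liver. UMIs were summed per library and type and tested with edgeR (quasi-likelihood, library as block, Benjamini-Hochberg over all genes tested). The 3 libraries, unlike in condition, served as replicates. The p-values weigh the difference between types against its variation over these libraries. Against CD4 T cells 52 of 5875 genes were higher in CD8 T cells (0.885%) and 58 lower (0.987%), with 735 genes at an unadjusted p under 0.05. The counts rest on single libraries, with 24 and 31 genes without the library labelled FL/FL Ctrl, 7 and 11 without FL/FL IR and 142 and 107 without ∆Hep IR. Genes of the gates were left out of all counts.

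Of the 15 genes listed as NK receptors on T cells, 6 were tested (Klrd1, Klrc1, Klrk1, Klre1, Ly6c2 and Cd7), and all 6 were higher than in CD4 T cells. Among them Ly6c2, the memory marker, kept the call in 10 of 12 alternatives. Cytotoxic genes were higher in 5 of 12 (Gzma, Gzmb, Nkg7, Ctsw and Cst7) and effector chemokines in 3 of 8 (Ccl4, Ccl5 and Xcl1), with none lower. Ccl4 stood at 839, 124 and 64.7 CPM in CD8 T cells against 25.2, 0 and 3.89 CPM in CD4 T cells by edgeR (log2 fold change 5.19, SE 0.31, adjusted p = 1.07e-09), and Gzma at 230.0, 284 and 1413 CPM in CD8 T cells against 5.25, 57.6 and 7.79 CPM (log2 fold change 5.30, SE 0.47, adjusted p = 4.19e-07). Each lost the call in 1 of 11 alternatives, with an adjusted p of 0.183 for Ccl4 and 0.0557 for Gzma. Runx3, the transcription factor of the CD8 lineage, was higher and Zbtb7b (ThPOK), that of the CD4 lineage, lower. Of 9 tested checkpoint receptors 5 were lower (Ctla4, Icos, Tnfrsf4, Tnfrsf18 and Cd200) and none higher. Foxp3, the factor of regulatory T cells, stood at 0.540, 0 and 0 CPM in CD8 T cells against 18.9, 75.3 and 75.9 CPM in CD4 T cells, and Cd40lg, the helper ligand, at 2.16, 0 and 0 CPM in CD8 T cells against 67.2, 44.3 and 48.7 CPM. Of the naive genes 2 of 15 were higher, among them Dapl1, while Lef1, Ccr7 and Tcf7 did not pass.

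Less familiar genes were among the most different. Fam241a stood at 195, 341 and 202 CPM in CD8 T cells against 15.8, 22.1 and 38.9 CPM in CD4 T cells (edgeR log2 fold change 3.34, SE 0.27, adjusted p = 1.24e-07), and it kept an adjusted p under 0.05 in all 12 alternatives that tested it. Bend4, a DNA-binding protein, stood at 31.8, 48.8 and 25.9 CPM in CD8 T cells against 2.10, 0 and 0 CPM (edgeR log2 fold change 4.76, SE 0.69, adjusted p = 0.000285) and kept it in all 8. Lcn4 (log2 fold change 3.06, SE 0.41, adjusted p = 0.000105) and Tmem108 (log2 fold change 2.86, SE 0.36, adjusted p = 5.54e-05) passed edgeR as well but each lost the call in an alternative, with adjusted p up to 0.224 and 0.103, and Adgrg5 and Ly6c2 did so up to 0.501 and 0.752. Of the 8 lowest, Foxp3 and Cd40lg kept it in all 8 alternatives, while Tnfrsf4, Cd200, Ecm1, Tbc1d4, Izumo1r and Ccr2 each lost it in at least 1, up to 0.541.

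Against T cells without Cd4 or Cd8 UMIs, 9 of 6367 genes were higher in CD8 T cells (0.141%) and 40 lower (0.628%), with 540 genes at an unadjusted p under 0.05. Without ∆Hep IR the counts were 97 and 138. The gate without Cd4 or Cd8 UMIs is a mixture. Trdc had a UMI in 11.8%, 20.9% and 5.49% of its cells, Klrb1c in 46.8%, 18.6% and 17.6%, and Ncr1 in 13.5%, 4.65% and 4.40%. CD4 or CD8 T cells whose Cd4 or Cd8 transcripts were missed can lie in it too. Few calls therefore do not show likeness to a single cell type. The highest were again Bend4 at 31.8, 48.8 and 25.9 CPM in CD8 T cells against 0.658, 0 and 3.37 CPM (edgeR log2 fold change 4.65, SE 0.71, adjusted p = 0.00307), Fam241a at 195, 341 and 202 CPM in CD8 T cells against 18.4, 44.9 and 35.4 CPM (edgeR log2 fold change 3.13, SE 0.29, adjusted p = 2.67e-05), Lcn4 (log2 fold change 2.48, SE 0.39, adjusted p = 0.00386) and Tmem108 (log2 fold change 1.89, SE 0.35, adjusted p = 0.0137). Tdrp, Sidt1, Themis, which acts in thymic selection, and Dnajc15 followed. Bend4 and Fam241a kept the call in all 9 and 12 alternatives, while the 6 others of the 8 highest each lost it in at least 1, with adjusted p up to 0.161 (Lcn4), 0.380 (Tmem108), 0.531 (Tdrp), 0.380 (Sidt1), 0.511 (Themis) and 0.498 (Dnajc15). The lowest were Zbtb16 (PLZF), the factor of innate-like T cells, at 0.540, 0 and 1.85 CPM in CD8 T cells against 37.5, 41.2 and 27.0 CPM (edgeR log2 fold change -5.06, SE 0.73, adjusted p = 0.0023), then Ckb, Tmem176a, Pxdc1, Anxa1, Tmem176b, Il2ra and Ccr2. Zbtb16 kept the call in all 7 alternatives and the other 7 each lost it in at least 1, up to 0.414. No list of naive, cytotoxic or NK receptor genes had a member that passed, and of effector genes Ccl3 and Xcl1 were lower.

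Against NK cells, 209 of 5899 genes were higher (3.54%) and 310 lower (5.26%), with 1237 at an unadjusted p under 0.05, and 69 and 159 without FL/FL Ctrl and 191 lower without ∆Hep IR. The NK gate asked for no Cd3 UMI and at least 2 UMIs of Ncr1 and Klrb1c together, so differences in genes that go with these follow in part from the gate. Naive and central memory genes were higher in 12 of 15, with none lower. NK receptors were lower in 11 of 12, cytotoxic genes in 8 of 13 and effector genes in 7 of 10. Themis, Cd6, Cd5, Fam169b and Tmem108 had no UMI in the NK cells, and CD8 T cells were at least 59.1-fold, 50.1-fold, 44.0-fold, 36.5-fold and 30.7-fold higher at a floor of 3 counts over the NK sums. Klra4 and Khdc1a had none in CD8 T cells and were at least 546-fold and 69.4-fold lower. Irf8 stood at 23.8, 4.43 and 44.4 CPM in CD8 T cells against 1329.8, 644 and 1125 CPM in NK cells. Prf1, Gzmb and Ifng of CD8 T cells were thus below the NK level also in ∆Hep IR, where they stood at 35.1, 710.1 and 301 CPM against 648, 3537 and 1129 CPM.

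**Figure D5:**
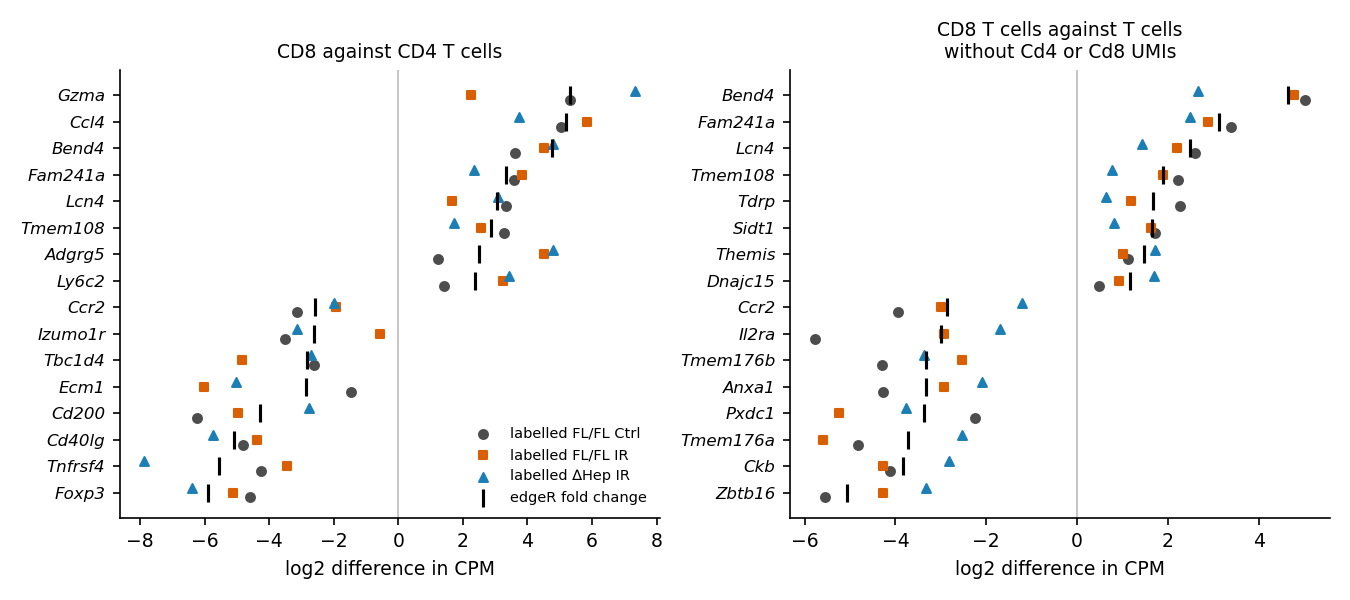
Difference in log2 CPM between CD8 and CD4 T cells (left) and between CD8 T cells and T cells without Cd4 or Cd8 UMIs (right), for the 8 highest and 8 lowest genes of each edgeR test. Coloured points are the 3 libraries and black ticks the fitted fold change; where a type had no UMI the difference depends on the constant added before the log, and Fam241a and Bend4 lie right of 0 in all 3 libraries in both panels.

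A variable gene of the T cell receptor beta chain (Trbv) had a UMI in 37, 1 and 11 CD8 T cells. The 37 cells of FL/FL Ctrl used 17 Trbv genes, with at most 5 cells on 1 gene (Trbv12-2, 13.5%, 4.54 to 28.8), and the 11 of ∆Hep IR used 7, with at most 3 on 1 gene (Trbv20, 27.3%, 6.02 to 61.0). The inverse Simpson index, the number of equally used genes that would give the same spread, was 13.3 and 5.76. Usage was not compared between libraries, given so few cells, and 3′ reads hold little of these genes.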

How the data were processed

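Single-cell RNA of mouse liver was measured in 3 libraries, 1 per group, with no count of animals given. The matrices hold UMI counts per gene and barcode as deposited by the authors, not normalized. The submitters' processing notes name Cell Ranger 6.1.1, CASAVA 1.8, Seurat 4.0.3 and mm10, and no source used here gives the gene annotation.

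CD8 T cells were gated on counts as the report describes. CD4 T cells met the same rule with at least 1 Cd4 UMI and no Cd8a or Cd8b1 UMI. T cells without Cd4 or Cd8 UMIs met it with none of these. NK cells had no Cd3, Cd8a, Cd8b1 or Cd79a UMI and at least 2 UMIs of Ncr1 and Klrb1c together, with the same Lyz2, S100a8 and S100a9 limits. B cells had at least 2 Cd79a UMIs and no Cd3 UMI. Doublets were marked with Scrublet (scanpy 1.11.5) and left in the main values. UMIs were summed per library and type and given as counts per 1000000 of that sum (CPM). Between libraries there is no test: ratios have exact conditional 95% intervals for counting error, 0.5 counts were added for log2 ratios, and a gene was measured with at least 20 UMIs over the 2 libraries. Between cell types, edgeR 4.0.16 (quasi-likelihood, TMM, library as block, at least 10 UMIs in 3 of 6 sums) was used with Benjamini-Hochberg adjustment. The library pairs the sums because both types come from it. On simulated counts the test of CD8 against CD4 T cells, over 5399 genes, recovered 65.0% of 2-fold and 97.9% of 4-fold changes and called 0.154% of unchanged genes. That against NK cells (5434 genes) recovered 49.5% and 94.7%, and that against T cells without Cd4 or Cd8 UMIs (5840 genes) 39.8% and 95.7%. The simulated sums shared 1 mean profile and 1 dispersion for all genes, with no difference between libraries but depth. Changes were put only in genes with at least 100 UMIs. The real libraries differ in condition and genes differ in spread, so these rates do not describe the test on the real counts.

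Named genes were the 6 highest and 6 lowest ratios per pair of libraries among genes that reached 60 UMIs and were seen in 10% or more of the CD8 T cells of 1 library. They also had an interval without 1 and, where higher, a level at least 0.5 times that of kept cells without a Cd3 UMI. The 8 highest and 8 lowest of each edgeR test were named too. Mitochondrial, ribosomal, haemoglobin, antigen receptor, sex-linked marker, unnamed, gate and other-cell-type genes were left out of this choice, and up to 6 genes per list were added. Other genes were chosen after their values were seen. The members and the lists were chosen with earlier results of these data known. A few genes are not reported here.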

Additional observations from a re-analysis of the deposited data

Results flagged for a closer look

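For 3 genes the difference between 2 libraries had opposite signs in CD8 and CD4 T cells, with both ratios past 2-fold and counting intervals without 1. The difference was not tested for any of them. Lgals3 (galectin 3) had a log2 ratio of 2.13 in CD8 T cells and -1.88 in CD4 T cells between ∆Hep IR and FL/FL IR, and 0.40 in CD8 T cells without the cycling cells. Plac8 had 1.03 in CD8 and -3.26 in CD4 T cells between ∆Hep IR and FL/FL Ctrl, and 1.06 in CD8 T cells without the cycling cells. Fkbp2 had 1.48 in CD8 and -1.34 in CD4 T cells between the same libraries, and -0.53 in CD8 T cells without the cycling cells.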

How the results depend on the processing

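The shares of CD8 T cells and their ratios to CD4 T cells stayed within the intervals of the main values in the alternatives run, but with at least 2 Cd8 UMIs the interval of the ratio in ∆Hep IR (0.662, 0.439 to 0.987) no longer took in 1. Of the other leading values 3 reversed. Alternatives by Ccl5 class, cycling, depth over 20000 UMIs and endothelial UMIs were chosen after seeing the data. The cause of the changes below was not tested.

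Between FL/FL IR and FL/FL Ctrl, 740 genes were higher and 326 lower with 2 counts added, 22 and 240 with at least 100 UMIs, and 769 were lower in cells without Ccl5, where fewer genes were measured (16.8% of 4571, against 15.9%). There Cd7 had a log2 ratio of 2.03 and Pmaip1 -0.019, and Ctla4 had -0.092 in cells with 5 or more Ccl5 UMIs. Between ∆Hep IR and FL/FL IR, the proliferation median was 3.21 with the mean of per-cell CPM, 2.83 with 2 counts, 3.54 with at least 100 UMIs, 2.55 with members at their bound, 2.38 without cells over 20000 UMIs, -0.20 in cells without Ccl5 and 0.14 without cycling cells. The genes higher were 437 with 2 counts, and higher and lower 107 and 9 with at least 100 UMIs, 345 and 99 without cells over 20000 UMIs, 110 and 55 in cells without Ccl5 and 224 and 87 without cycling cells. Pycard was at -0.17 in cells without Ccl5, and Gapdh at -0.10 and Gzma at -4.24 without cycling cells. Between ∆Hep IR and FL/FL Ctrl, the proliferation median was 2.10 with per-cell CPM, 2.07 with at least 100 UMIs, 0.86 without cells over 20000 UMIs, -0.65 in cells without Ccl5 and -0.39 without cycling cells. Lower genes were 459 with 2 counts, higher and lower 178 and 185 with at least 100 UMIs, and higher 315 in cells without Ccl5 and 426 without cycling cells. The naive median was -0.090 in cells without Ccl5, -1.35 with 5 or more Ccl5 UMIs and -0.12 without cycling cells. Ifnar1 was at 0.093 and Nr4a3 at 0.31 in cells without Ccl5, and Gzma at -3.09 and Rora at -0.28 without cycling cells.

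DESeq2 1.42.0 called 32 higher and 8 lower against CD4 T cells, 113 and 155 against NK cells and 5 higher against T cells without Cd4 or Cd8 UMIs. With no filter edgeR called 108 and 131, 395 and 484, and 42 and 140. With no replicate block, that is without pairing the sums of a library, it called 3 and 4, 81 and 146, and 2 and 2. Leaving out 1 library gave 7 to 142 higher and 11 to 107 lower against CD4 T cells, 69 to 179 and 159 to 337 against NK cells, and 11 to 97 and 36 to 138 against T cells without Cd4 or Cd8 UMIs. With at least 2 Cd8 UMIs 30 and 36 passed against CD4 T cells. Without cells over 20000 UMIs 154 and 99 passed against CD4 T cells, 376 higher against NK cells, and 30 and 82 against T cells without Cd4 or Cd8 UMIs. The 29 CD8 T cells of FL/FL IR limit every comparison with that library.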
